A study of Homo sapiens with 6 samples.

Results

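The genes described here are 36 targets and regulators of p53, taken by gene symbol from a count table of 62710 Ensembl genes. They were measured by RNA-seq in A549, an established human lung adenocarcinoma cell line that carries a KEAP1 mutation and a deletion of CDKN2A. In 3 libraries the cells had received polystyrene microplastics (PS-MP), labelled as 20 mg/mL during 48 h. The other 3 came from untreated A549 cells and are called controls. The labels name no genetic change in either group and no particle size. Both groups grew in DMEM with fetal bovine serum. A dose in milligrams per millilitre is unusually large for particles in culture, and the sources used here offer no way to check it. Whether replicates were grown apart is not in the labels, and the p-values therefore reflect the scatter of these libraries alone, which may be technical. All 36 genes were found in the table, and 35 had enough counts to be tested. The exception was TNFRSF10C, a decoy receptor for the death ligand TRAIL, with 4, 8 and 13 counts in PS-MP cells and 7, 11 and 6 counts in control cells.

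p53 is a transcription factor that is kept scarce by the ubiquitin ligase MDM2 and is stabilised by DNA damage, ribosomal stress and other insults. Once stable it binds paired half-sites in DNA and raises the transcription of genes that halt the cell cycle, change metabolism, repair DNA or start cell death. Several of its targets, MDM2 and PPM1D among them, act back on p53 to end the response. Control of p53 itself is mostly at the level of the protein, which RNA-seq does not measure.

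The sequences below show where the half-site that p53 binds was found near the starts of these genes. Promoter windows from 250 bases before to 50 bases after a RefSeq start (build GRCh38.p14) were on hand for 31 of the 36 genes, 47 windows in all. The p53 half-site, searched with no mismatch (it reads the same on both strands), was in 5 of the 47 windows (10.6%), and in 6.63% of all 35116 windows of the table. No window of the 47 held 2 exact half-sites 0 to 13 bases apart, which 0.0285% of all windows did. An adjacent pair of half-sites, each with at most 1 mismatch outside its C and G core, was in 0.157% of all windows and in 2 overlapping windows of the 47, both at the inner promoter of MDM2. That looser search was chosen after the strict ones had been seen. The MDM2 window is printed whole, because MDM2 is the gene through which p53 limits itself and this intronic pair is a long-known p53 element. It lies on the plus strand at chr12:68808767-68809066, with the pair at chr12:68808923-68808942, in an intron, 94 bases before the inner start site. Capitals mark the pair, in which each half-site has 1 mismatch.
MDM2: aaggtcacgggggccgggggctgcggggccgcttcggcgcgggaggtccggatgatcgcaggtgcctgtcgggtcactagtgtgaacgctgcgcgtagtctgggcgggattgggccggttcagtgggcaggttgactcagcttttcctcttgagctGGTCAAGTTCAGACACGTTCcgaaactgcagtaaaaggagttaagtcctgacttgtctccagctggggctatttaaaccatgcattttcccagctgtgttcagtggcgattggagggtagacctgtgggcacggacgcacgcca
The 5 exact half-sites are shown with their flanks, 60 bases each in the direction of the gene, the half-site in capitals. They belong to SESN1 (minus strand, chr6:109009003-109009062, in an intron), FDXR (minus strand, chr17:74872971-74873030), RPS27L (minus strand, chr15:63157502-63157561), PLK2 (minus strand, chr5:58460184-58460243) and AEN (plus strand, chr15:88621281-88621340). In the last 4 the half-site touches an annotated exon of the gene in GENCODE release 29.
SESN1: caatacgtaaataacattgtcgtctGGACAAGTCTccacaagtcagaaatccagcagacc
FDXR: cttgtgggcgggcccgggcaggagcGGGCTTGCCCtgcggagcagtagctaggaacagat
RPS27L: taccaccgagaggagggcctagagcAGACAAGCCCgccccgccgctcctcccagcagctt
PLK2: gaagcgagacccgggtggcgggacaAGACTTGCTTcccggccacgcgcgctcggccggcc
AEN: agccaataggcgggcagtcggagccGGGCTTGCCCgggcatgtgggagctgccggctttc
The half-sites begin 49 bases before the RefSeq start in SESN1, 11 in FDXR, 59 in RPS27L, 132 in PLK2 and 34 in AEN. A match is a string of letters in a short window, and sites farther from the start were not searched.

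Totals were 17541896 to 19119508 counts in the PS-MP libraries and 17013293 to 21316451 in the controls. Levels are given as CPM, counts scaled to library size with TMM factors, on which 3 counts equal 0.159 to 0.174 CPM in PS-MP libraries and 0.137 to 0.177 CPM in controls. The third library of each group stood apart from the other two, with correlations of log2 CPM of 0.984 and 0.981 in the PS-MP group and 0.984 and 0.985 in the controls, against 0.992 and 0.994 between replicates 1 and 2. All 7 markers of the A549 line exceeded 3 counts in every library, and the deleted CDKN2A had 0 counts in each. The summed level of 6 leukocyte markers was 24.2 to 37.2 CPM in PS-MP cells and 19.9 to 24 CPM in controls, with the T cell marker CD3E at 0 and CD14 the highest. That of 6 fibroblast markers was 9.32 to 13.7 CPM in PS-MP cells and 6.51 to 8.32 CPM in controls, with the collagen gene COL1A2 at 0, and that of 6 endothelial markers was 0.695 to 1.01 CPM in PS-MP cells and 0.321 to 1.06 CPM in controls. The part of these markers in the results was not tested. In bulk RNA a change in the number of cells that express a gene cannot be told apart from a change in RNA per cell.

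Most of the p53 network genes were higher in PS-MP cells. In edgeR (quasi-likelihood F test, Benjamini-Hochberg adjustment over all 15458 tested genes), 25 of the 35 tested members rose, where 4.91% of all tested genes did. MDM4 alone fell, where 4.65% of all tested genes did. The median log2 fold change of the 35 was 0.72, beside 0.00 over all tested genes. Of the 25 risers 12 were at least 2-fold higher, and of the 759 risers among all 15458 tested genes 213 were. The 3 PS-MP libraries lay above all 3 controls in 26 members (16.6% of all tested genes) and below them in 2, MDM4 and GADD45B (15.4% of all tested genes). Each gene was placed by hand in 1 class of function, and a different placement would change the counts per class. By class, 3 of 4 feedback genes rose, 5 of 9 genes of cell-cycle control, 8 of 9 genes of metabolism and redox, 8 of 10 tested genes of survival and death, and 1 of 3 genes of growth and secretion. The median of the 35 genes, as log2 CPM minus the control mean, was 0.71, 0.81 and 0.64 in the PS-MP libraries, against -0.00, 0.03 and 0.03 in the controls. Of the 25 rises, 18 kept an adjusted p of 0.05 or less in each of 15 other settings of test, scaling, filter or libraries.

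**Figure D1:**
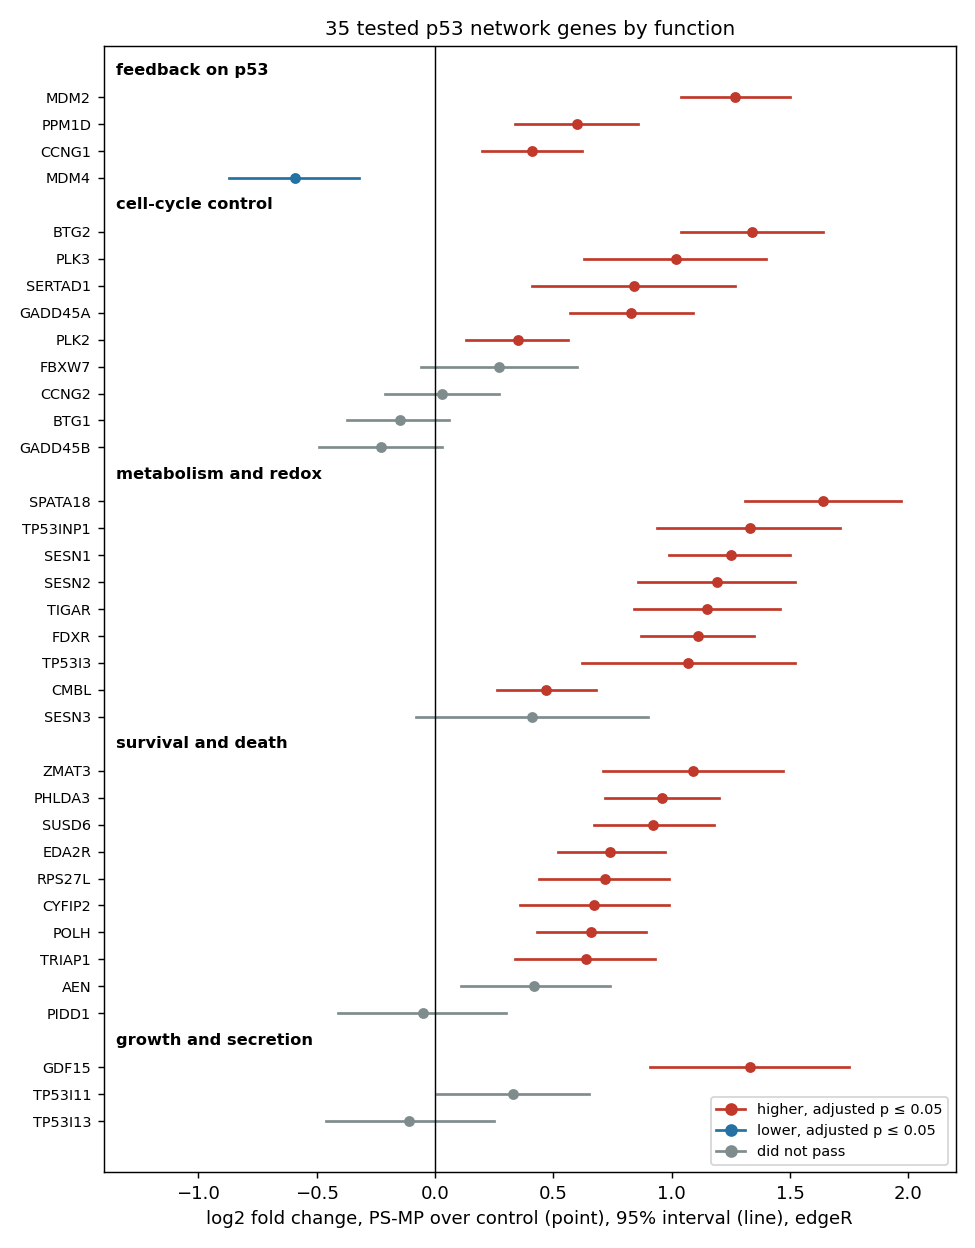
Log2 fold change of each of the 35 tested genes, PS-MP over control, with its 95% interval from edgeR, in blocks by function. Metabolism and redox holds 7 of the 12 genes that were at least 2-fold higher, and MDM4, at -0.59, is the one gene below 0 that passed.

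Among the genes that act back on p53, the 2 close relatives that restrain it moved in opposite directions. MDM2 (ENSG00000135679, chromosome 12, 68808177 to 68845544), the ubiquitin ligase that marks p53 for destruction, had 162, 149 and 177 CPM in PS-MP cells, against 67.0, 71.1 and 63.6 CPM in control cells. It was 2.42-fold higher (log2 fold change 1.27 ± 0.10 SE, adjusted p = 8.26e-05), with every PS-MP library far above every control. MDM4 (ENSG00000198625, chromosome 1, 204516379 to 204558120), which binds p53 and blocks its activation domain, had 21.3, 21.7 and 25.0 CPM in PS-MP cells, against 36.8, 35.8 and 30.1 CPM in control cells. It was 1.51-fold lower (log2 fold change -0.59 ± 0.12 SE, adjusted p = 0.0122), without overlap of the groups, and in both groups replicate 3 lay closest to the other group.

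PPM1D and CCNG1, both brakes on the p53 response, rose by less than MDM2. PPM1D (ENSG00000170836), the phosphatase that strips activating phosphates from p53 and its kinases, had 19.4, 18.9 and 19.7 CPM in PS-MP cells, against 12.5, 12.5 and 13.2 CPM in control cells. The rise was 1.52-fold (log2 fold change 0.60 ± 0.12 SE, adjusted p = 0.00922), with little spread within each group. CCNG1 (ENSG00000113328) encodes cyclin G1, which brings protein phosphatase 2A to MDM2. It had 206, 213 and 222 CPM in PS-MP cells, against 160, 170 and 152 CPM in control cells (1.33-fold, log2 fold change 0.41 ± 0.10 SE, adjusted p = 0.0219). The calls of these 3 smaller differences were lost in some fits that left out 1 library, but their log2 fold changes moved little. With 1 library left out, MDM4 ran from -0.68 to -0.55. PPM1D ran from 0.58 to 0.63 and CCNG1 from 0.37 to 0.45. MDM4 and CCNG1 missed the threshold without PS-MP replicate 1 or 2 or control replicate 1 or 2 (adjusted p from 0.0563 to 0.0734 for MDM4 and from 0.0586 to 0.105 for CCNG1). PPM1D missed it without control replicate 1 (adjusted p = 0.0542) or 2 (adjusted p = 0.0524), which left 1 called riser in the feedback class without either of those controls. Scaled by total counts alone, CCNG1 missed it as well (adjusted p = 0.0534).

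**Figure D2:**
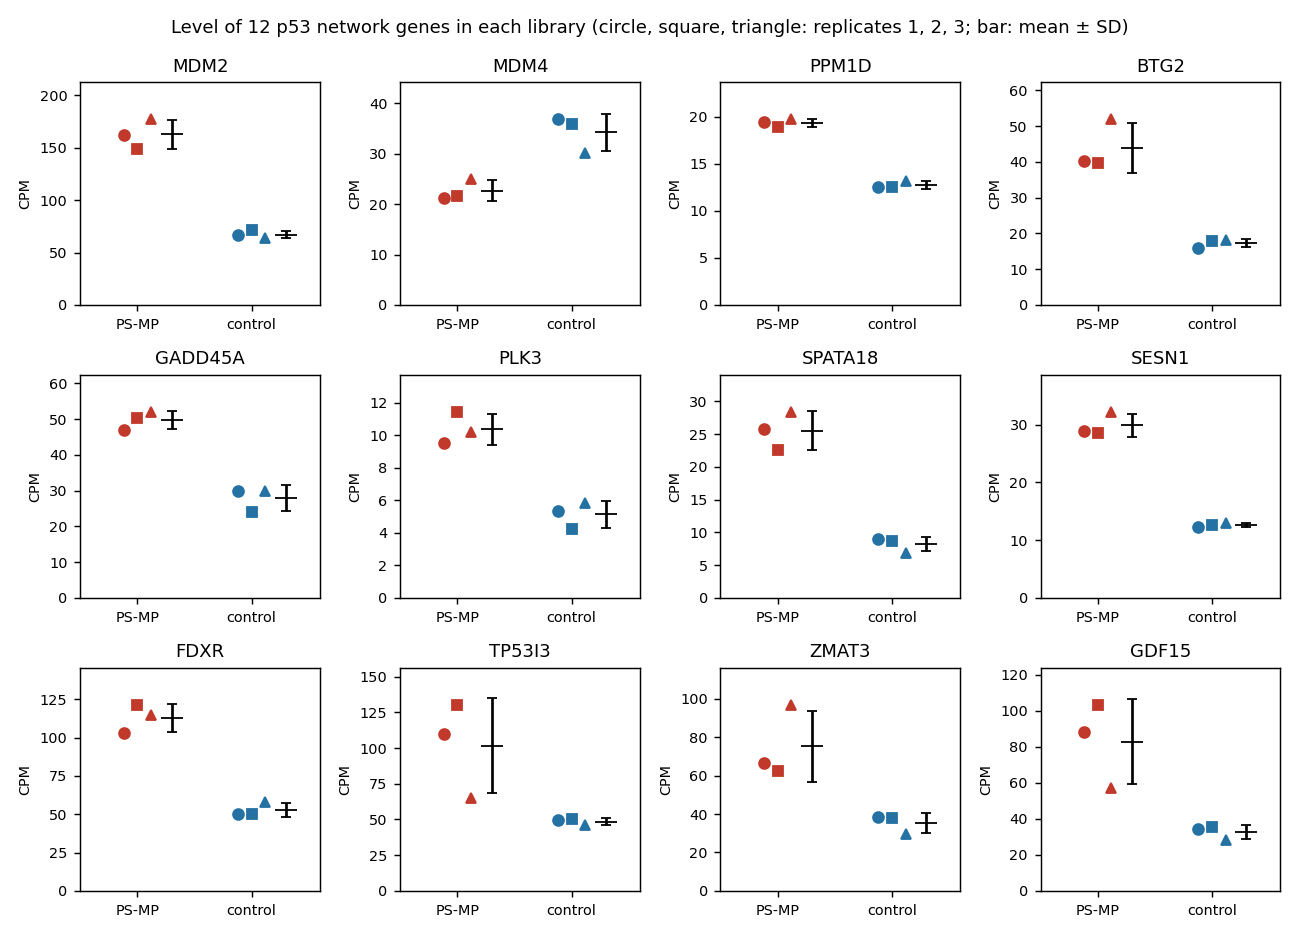
Level of 12 genes in CPM (vertical axis from 0) in each PS-MP and control library, with the mean and SD beside the points. MDM4 is lower in all 3 PS-MP libraries, and the other 11 genes are higher in all 3. All 12 were picked from the genes that passed, so their separation says nothing about the other members. TP53I3 and GDF15 have their lowest PS-MP value in replicate 3 and ZMAT3 and BTG2 their highest.

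Of the 9 genes of cell-cycle control 5 rose and 4 did not pass. The calls of SERTAD1 and PLK2 were lost in fits that left out 1 library. BTG2 (ENSG00000159388, chromosome 1, 203305491 to 203309602), an antiproliferative protein that speeds the shortening of mRNA tails, had 40.2, 39.6 and 51.9 CPM in PS-MP cells, against 15.9, 18 and 18.1 CPM in control cells. It was 2.53-fold higher (log2 fold change 1.34 ± 0.13 SE, adjusted p = 0.000197). GADD45A, a stress protein that binds p21 and PCNA and inhibits the mitotic kinase CDK1, had 47.0, 50.2 and 51.9 CPM in PS-MP cells, against 30.0, 23.9 and 30.0 CPM in control cells. Its rise was 1.78-fold (log2 fold change 0.83 ± 0.12 SE, adjusted p = 0.00146), and the groups of neither gene overlapped. PLK3, a stress-responsive polo-like kinase, was low in both groups, with 9.50, 11.4 and 10.2 CPM in PS-MP cells and 5.36, 4.21 and 5.82 CPM in control cells. It was 2.02-fold higher (log2 fold change 1.02 ± 0.17 SE, adjusted p = 0.0043).

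SERTAD1, a partner of the kinase CDK4, split the PS-MP libraries. It had 25.1, 27.7 and 15.8 CPM in PS-MP cells, against 11.8, 12.4 and 14.0 CPM in control cells, so that PS-MP replicate 3 lay just above the highest control (1.79-fold, log2 fold change 0.84 ± 0.19 SE, adjusted p = 0.0209). PLK2, a second stress-responsive polo-like kinase, had 167, 182 and 194 CPM in PS-MP cells, against 142, 145 and 141 CPM in control cells. Its 1.27-fold rise stood at the edge of the threshold (log2 fold change 0.35 ± 0.10 SE, adjusted p = 0.0476) and missed it when any 1 of the 6 libraries was left out (adjusted p from 0.0649 to 0.179). It also missed it with RLE scaling (adjusted p = 0.0528), when scaled by total counts alone (adjusted p = 0.11) and with no filter on low counts (adjusted p = 0.0724). SERTAD1 missed it without PS-MP replicate 1 or 2 or control replicate 1 or 2 (adjusted p from 0.0706 to 0.104), and any of these 4 omissions left 3 called risers in the class.

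The 4 other genes of this class did not pass. CCNG2, which encodes cyclin G2, had 25.8, 29.4 and 27.4 CPM in PS-MP cells and 26.2, 27.9 and 26.7 CPM in control cells. Its log2 fold change was 0.03 (95% interval -0.21 to 0.27, adjusted p = 0.891) and turned negative without PS-MP replicate 2 (-0.02) and when scaled by total counts alone (-0.04). BTG1, the relative of BTG2, had 145, 153 and 158 CPM in PS-MP cells and 176, 177 and 154 CPM in control cells (log2 fold change -0.15, 95% interval -0.37 to 0.06, adjusted p = 0.379), and only control replicate 3 overlapped the PS-MP range. GADD45B, the relative of GADD45A that NF-kB is known to induce, had 19.5, 23.7 and 21.7 CPM in PS-MP cells and 26.1, 24.1 and 25.8 CPM in control cells (log2 fold change -0.23, 95% interval -0.49 to 0.03, adjusted p = 0.267). FBXW7, the ubiquitin ligase receptor for cyclin E and MYC, had a log2 fold change of 0.27 (95% interval -0.06 to 0.60, adjusted p = 0.303).

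The class of metabolism and redox had a median log2 fold change of 1.15, and 8 of its 9 genes rose. SPATA18 (ENSG00000163071, chromosome 4, 52051304 to 52097299), which encodes the mitochondrial quality-control protein Mieap, had the steepest rise of the 35 tested genes. It had 25.8, 22.5 and 28.3 CPM in PS-MP cells, against 9.01, 8.73 and 6.92 CPM in control cells. The difference was 3.11-fold (log2 fold change 1.64 ± 0.15 SE, adjusted p = 0.000127), and the groups did not overlap.

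SESN1 and SESN2, stress proteins that hold back the growth kinase mTORC1, rose alike, and their relative SESN3 scattered. SESN1 (ENSG00000080546, chromosome 6, 108984309 to 109094846) had 28.9, 28.6 and 32.1 CPM in PS-MP cells, against 12.2, 12.6 and 12.9 CPM in control cells (2.38-fold, log2 fold change 1.25 ± 0.12 SE, adjusted p = 0.00013). SESN2 (ENSG00000130766), also known as a target of the stress factor ATF4, had 19.0, 17.9 and 15.3 CPM in PS-MP cells, against 7.54, 6.95 and 8.38 CPM in control cells (2.28-fold, log2 fold change 1.19 ± 0.15 SE, adjusted p = 0.000577). SESN3 (ENSG00000149212) had 17.5, 10.8 and 22.5 CPM in PS-MP cells and 13.3, 13 and 11.9 CPM in control cells. PS-MP replicate 2 lay below all 3 controls and the other PS-MP libraries above them, and SESN3 did not pass (log2 fold change 0.41, 95% interval -0.08 to 0.90, adjusted p = 0.289).

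Enzymes of metabolism rose beside the sestrins. FDXR (ENSG00000161513, chromosome 17, 74862497 to 74873031), the mitochondrial reductase that passes electrons to ferredoxins, had 103, 121 and 115 CPM in PS-MP cells, against 49.9, 49.8 and 57.9 CPM in control cells (2.15-fold, log2 fold change 1.11 ± 0.11 SE, adjusted p = 0.000186). TIGAR, a phosphatase that slows glycolysis, had 40.9, 33.7 and 38.8 CPM in PS-MP cells, against 19.4, 17.6 and 14.2 CPM in control cells (2.22-fold, log2 fold change 1.15 ± 0.14 SE, adjusted p = 0.000505). In both genes every PS-MP library was well above every control. TP53INP1, a p53 cofactor with a part in autophagy, was 2.51-fold higher (log2 fold change 1.33, adjusted p = 0.000819). Rises were also found for TP53I3, a quinone oxidoreductase (1.07, adjusted p = 0.00776), and the hydrolase gene CMBL (0.47, adjusted p = 0.00964). CMBL missed the threshold without control replicate 1 (adjusted p = 0.0526) or control replicate 2 (adjusted p = 0.0576).

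**Figure D3:**
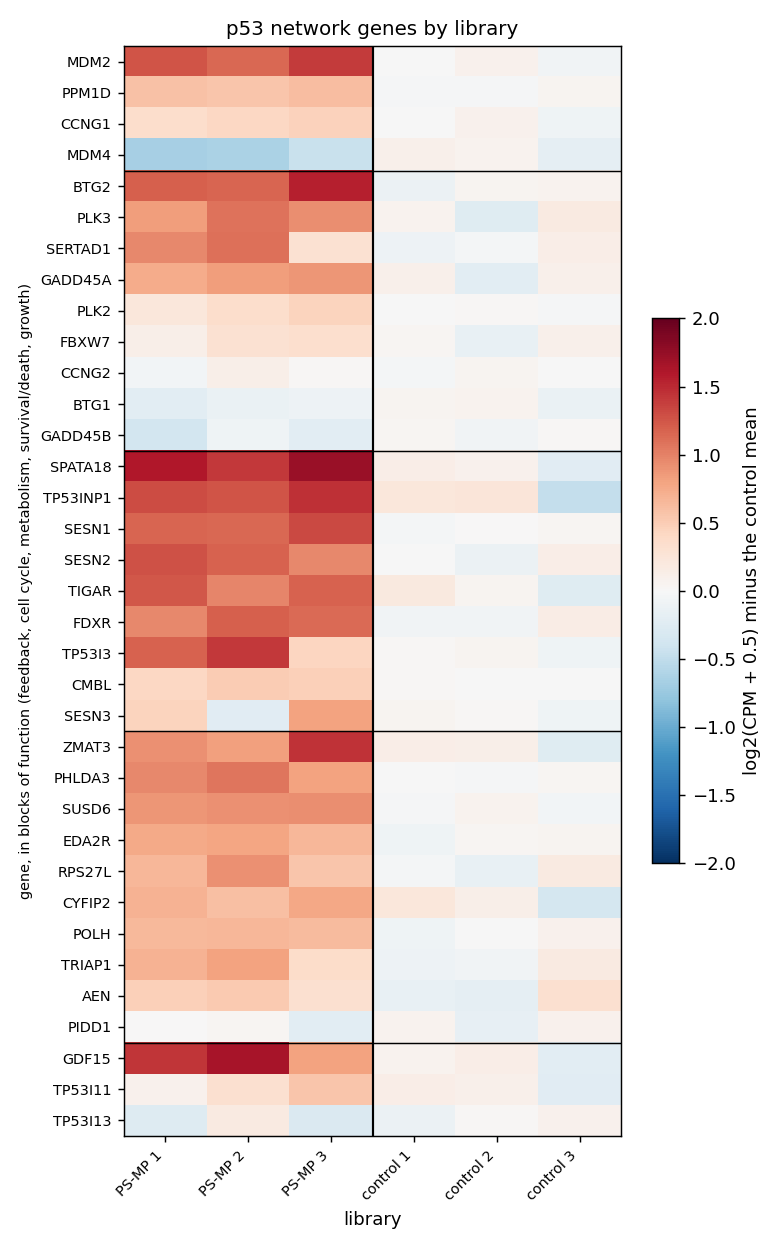
Log2(CPM + 0.5) minus the control mean for the 35 tested genes (rows, in blocks by function) in each library (columns, PS-MP left of control). The block of metabolism and redox is raised in all 3 PS-MP libraries except for SESN3 in replicate 2. GDF15, TP53I3 and SERTAD1 are paler in PS-MP replicate 3 than in the other PS-MP libraries.

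In the class of survival and death, which holds genes of both kinds and others such as POLH and CYFIP2, 8 of 10 tested genes rose. ZMAT3, an RNA-binding protein that acts on splicing, had 66.7, 62.5 and 96.7 CPM in PS-MP cells, against 38.6, 38.0 and 29.5 CPM in control cells (2.13-fold, log2 fold change 1.09 ± 0.17 SE, adjusted p = 0.00276). PHLDA3 (ENSG00000174307, chromosome 1, 201464278 to 201469237), which keeps the survival kinase AKT from the membrane, had 53.6, 58.2 and 48.1 CPM in PS-MP cells, against 27.1, 27.0 and 28.0 CPM in control cells. It was 1.95-fold higher (log2 fold change 0.96 ± 0.11 SE, adjusted p = 0.000329). The groups overlapped in neither gene, and the PHLDA3 controls lay close together.

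SUSD6 and EDA2R were raised with little spread. SUSD6, a membrane protein, had 23, 23.5 and 23.8 CPM in PS-MP cells, against 12.1, 13 and 11.8 CPM in control cells (1.90-fold, log2 fold change 0.92 ± 0.12 SE, adjusted p = 0.000616). EDA2R, a receptor of the tumour necrosis factor receptor family, had 45.1, 46.0 and 42.4 CPM in PS-MP cells, against 25.0, 27.2 and 27.5 CPM in control cells (1.67-fold, log2 fold change 0.74 ± 0.10 SE, adjusted p = 0.00112). The other risers were RPS27L, CYFIP2, POLH and TRIAP1, with log2 fold changes of 0.72, 0.67, 0.66 and 0.64 and adjusted p of 0.00501, 0.0132, 0.00278 and 0.0132. POLH encodes the DNA polymerase that copies past ultraviolet lesions, CYFIP2 a subunit of an actin-regulating complex, and TRIAP1 a mitochondrial inhibitor of apoptosis. RPS27L is a close copy of the ribosomal protein gene RPS27, and reads that fit both could be split between them. TRIAP1 missed the threshold without PS-MP replicate 1 or 2 or control replicate 1 or 2 (adjusted p from 0.0584 to 0.0695), and CYFIP2 without PS-MP replicate 1 (adjusted p = 0.0615).

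AEN and PIDD1 did not pass. AEN, an apoptosis-linked nuclease, had 86.7, 90.2 and 77.9 CPM in PS-MP cells, against 56.1, 55.2 and 78.4 CPM in control cells (log2 fold change 0.42, 95% interval 0.11 to 0.74, adjusted p = 0.0922). Control replicate 3 overlapped the PS-MP range, and without it AEN passed (log2 fold change 0.61, adjusted p = 0.0088). It passed also with no filter on low counts (adjusted p = 0.018). PIDD1, the scaffold that activates caspase-2, had 8.22, 8.41 and 6.95 CPM in PS-MP cells and 8.60, 7.22 and 8.66 CPM in control cells (log2 fold change -0.05, 95% interval -0.41 to 0.30, adjusted p = 0.875). Its sign turned without PS-MP replicate 3 (0.03), and its exons overlap those of the abundant ribosomal gene RPLP2 on the opposite strand over 107 bases.

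Of the 3 genes of growth and secretion, only GDF15 passed. GDF15 (ENSG00000130513, chromosome 19, 18374731 to 18389176), a secreted factor of the TGF-beta superfamily that p53 and ATF4 are both known to induce, had 88.4, 103 and 57.2 CPM in PS-MP cells, against 34.5, 35.7 and 28.3 CPM in control cells. It was 2.52-fold higher (log2 fold change 1.33 ± 0.19 SE, adjusted p = 0.00147), without overlap, and replicate 3 was the lowest library of each group. TP53I11 had 42.0, 49.1 and 58.2 CPM in PS-MP cells and 43.2, 42.1 and 33.6 CPM in control cells (log2 fold change 0.33, 95% interval 0.01 to 0.65, adjusted p = 0.188). TP53I13 had 10.9, 15.0 and 10.7 CPM in PS-MP cells and 12.1, 13.4 and 13.9 CPM in control cells (log2 fold change -0.11, 95% interval -0.46 to 0.25, adjusted p = 0.738). The PS-MP and control ranges of both genes overlapped. Exons of TP53I13 overlap those of ABHD15 on the opposite strand over 9.43% of their length, and the strand setting of the counting is not given in the sources used here.

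Within families of related genes, ratios of CPM were compared for 8 pairs, and in 6 of them the groups did not overlap. No share over other gene pairs was computed. The ratios use the same counts as the fold changes above and the sestrin pairs share genes, so the 6 are not a separate result. The ratio of MDM2 to MDM4 was 7.60, 6.85 and 7.05 in PS-MP libraries, against 1.82, 1.98 and 2.11 in control libraries, a 3.64-fold difference in the ratio (log2 difference 1.86 ± 0.08 SE). The ratio of BTG2 to BTG1 was 0.277, 0.259 and 0.329 in PS-MP libraries, against 0.0905, 0.101 and 0.118 in control libraries (2.80-fold, log2 difference 1.48 ± 0.15 SE). The ratio of GADD45A to GADD45B was 2.41, 2.12 and 2.39 in PS-MP libraries, against 1.15, 0.992 and 1.16 in control libraries (2.09-fold, log2 difference 1.07 ± 0.09 SE). In each of these 3 pairs the groups did not overlap.

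The differences were smaller for the cyclins G and the polo-like kinases. CCNG1 to CCNG2 gave 7.98, 7.24 and 8.12 in PS-MP libraries, against 6.11, 6.11 and 5.69 in control libraries (log2 difference 0.38 ± 0.06 SE). PLK2 to PLK3 gave 17.6, 16.0 and 19.0 in PS-MP libraries, against 26.6, 34.4 and 24.2 in control libraries (log2 difference -0.68 ± 0.17 SE). SESN1 to SESN3 gave 1.65, 2.64 and 1.43 in PS-MP libraries, against 0.916, 0.965 and 1.08 in control libraries (log2 difference 0.90 ± 0.28 SE), or 0.64 without PS-MP replicate 2. The ratio of SESN2 to SESN3 overlapped between the groups, with a log2 difference of 0.84 ± 0.39 SE that ran from 0.53 without PS-MP replicate 2 to 1.17 without PS-MP replicate 3. SESN2 to SESN1 gave a log2 difference of -0.06 ± 0.16 SE and turned to 0.09 without PS-MP replicate 3. An exact two-sided permutation test of 3 libraries against 3 cannot go below p = 0.1. That exact permutation test gave p = 0.1 for the 6 pairs whose ratios did not overlap (0.133 adjusted over the 8 pairs), p = 0.2 for SESN2 to SESN3 (0.229 adjusted) and p = 0.9 for SESN2 to SESN1 (0.9 adjusted).

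**Figure D4:**
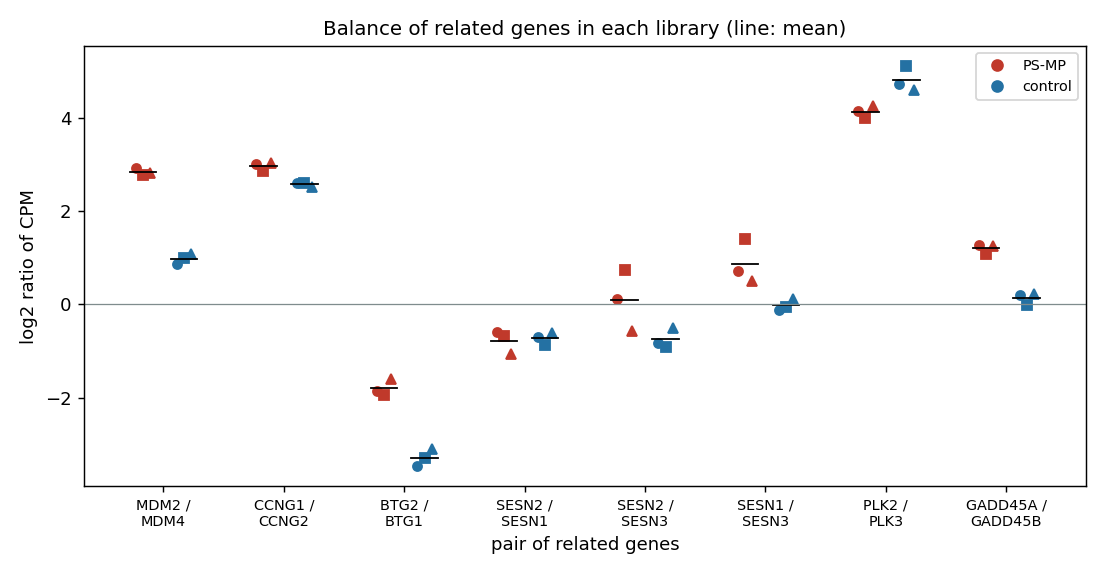
Log2 ratio of CPM within 8 pairs of related genes in each library, PS-MP left of control in each pair, with the mean as a line. The MDM2 to MDM4 ratio has a mean of 2.84 in PS-MP libraries and 0.98 in control libraries, the widest gap of the 8, and both ratios to SESN3 have wide PS-MP scatter (SD 0.64 for SESN2 to SESN3 and 0.46 for SESN1 to SESN3).

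PS-MP replicate 3 differed from the other PS-MP libraries in some of these genes, in both directions. Among the 35 tested genes, whether they passed or not, it was the highest PS-MP library for 17 and the lowest for 12. MDM4, which fell, is among the 17. The same count was not made over all tested genes, so it does not single out the p53 network. It lay 0.75, 0.67 and 0.63 below the nearest other PS-MP library on the log2 scale for TP53I3, SERTAD1 and GDF15. In the other direction it lay 0.54, 0.37 and 0.36 above the nearest one for ZMAT3, BTG2 and SESN3. TP53I3, named here for this spread after its values were seen, had 110, 130 and 65.2 CPM in PS-MP cells, against 49.6, 50.2 and 45.9 CPM in control cells. A list of 18 genes of the ATF4 response, which shares no gene with the 36, had a median of 0.48, 0.47 and -0.13 in PS-MP replicates 1, 2 and 3, as log2 CPM minus the control mean. Its part in the lower values of GDF15, TP53I3 and SERTAD1 in replicate 3 was not tested.

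Per kilobase of annotated exon, which allows levels to be compared between genes, the 35 genes spanned 0.947 to 69.0 CPM per kb in PS-MP cells and 0.786 to 51.9 CPM per kb in control cells. CCNG1 was the most abundant and FBXW7 the least in both groups. BTG1 stood second in controls at 34.8 CPM per kb and eighth in PS-MP cells at 31.3, while TRIAP1 stood second in PS-MP cells at 53.5 CPM per kb, against 34.4 in controls. Steeply raised genes could be low ones. SPATA18 stood at 5.17 CPM per kb in PS-MP cells and 1.66 in control cells, MDM2 at 12.2 in PS-MP cells and 5.06 in control cells, and SESN1 at 5.83 in PS-MP cells and 2.45 in control cells. These lengths join the exons of all annotated transcripts, so they understate the level of genes with long, rarely used exons.

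Of 22 tested genes of the p53 family and its regulators, 0 rose by edgeR, by DESeq2 or by limma-voom, where 4.91% of all tested genes rose by edgeR. A count of 0 in a list of this size is near that share. At an unadjusted p under 0.05, 0 were higher and 7 lower. The share of all tested genes at that threshold was not computed, so no shift of the list can be read from these counts. The PS-MP libraries lay below all controls in 7 of the 22, where 15.4% of all tested genes did so. Lower calls numbered 1 by edgeR (4.65% of all tested genes), 2 by DESeq2 and 0 by limma-voom. The methyltransferase gene KMT5A fell (log2 fold change -0.53, adjusted p = 0.05) and lost that call in each fit that left out 1 library (adjusted p over all alternatives from 0.00544 to 0.154). CHEK2, the checkpoint kinase that phosphorylates p53, had a log2 fold change of -0.44 (adjusted p = 0.0547). The median of the list was -0.12.

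Of 81 tested genes on a list of other known p53 targets, 37 rose, 1 fell and 43 did not pass, with a median log2 fold change of 0.47. Over all tested genes 4.91% rose and 4.65% fell. The 37 became 26 without PS-MP replicate 1 or without PS-MP replicate 2. In those 2 fits the 759 higher calls over all tested genes became 356 and 361. CDKN1A (p21), an inhibitor of cyclin-dependent kinases, had 444, 502 and 657 CPM in PS-MP cells, against 120, 117 and 134 CPM in control cells (log2 fold change 2.11, adjusted p = 4.97e-05). The gene that fell, named after its value was seen, was E2F7, a repressor of cell-cycle genes (log2 fold change -1.43, adjusted p = 0.00502). Of the 18 ATF4 response genes 2 rose (11.1%, beside 4.91% of all tested genes, a share near the background for so few genes), NUPR1 (log2 fold change 1.88, adjusted p = 0.0148) and CEBPB (log2 fold change 0.37, adjusted p = 0.0302). Both missed the threshold without PS-MP replicate 1, PS-MP replicate 2 or control replicate 1 and with no filter on low counts, and CEBPB also without control replicate 2, when scaled by total counts alone and with the replicate block. Their adjusted p over the alternatives reached 0.311 for NUPR1 and 0.153 for CEBPB.

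**Figure D5:**
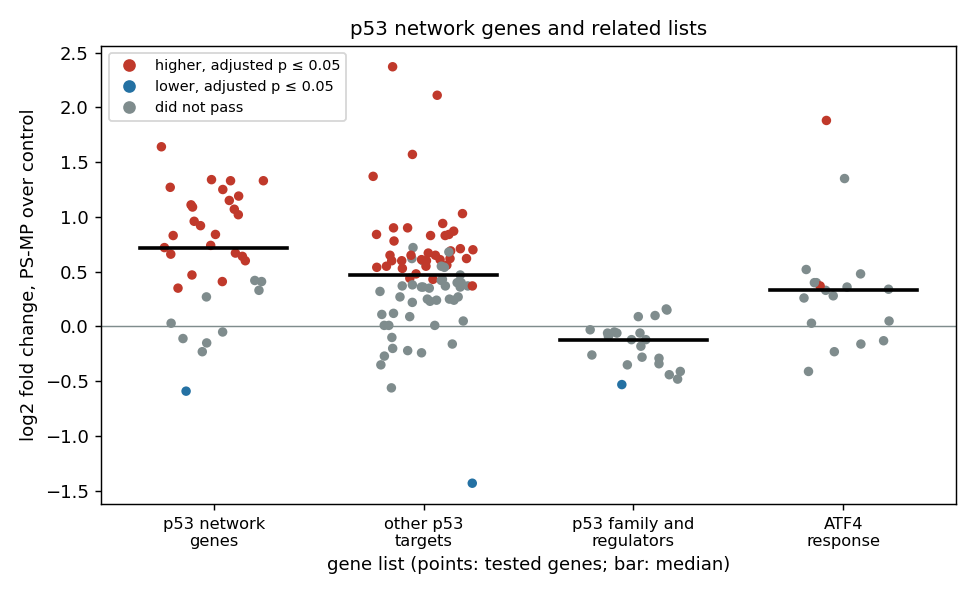
Log2 fold change, PS-MP over control, of each tested gene in 4 lists, with the median as a bar. The p53 network genes have a median of 0.72 and the other p53 targets 0.47, while the p53 family and regulators have a median of -0.12 and the ATF4 response genes 0.34.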

How the data were processed

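The deposited table holds whole-number counts per Ensembl gene, 1 column per library, and is named for featureCounts. Per the submitters' processing notes, fastp, HISAT2, StringTie, RSEM and DESeq2 were used with GRCh38, without roles or versions. The strand setting, multi-mapping rule and annotation release are not given in the sources used here. Per the labels' protocols, libraries were poly(A)-selected, stranded and paired-end.

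The 36 members and all gene lists were chosen with earlier results of these data known, and no p is adjusted over the members alone. Testing used edgeR 4.0.16 under R 4.3.3 (filterByExpr, TMM, robust quasi-likelihood F test, two-sided, Benjamini-Hochberg over 15458 genes, threshold 0.05). CPM use the counts of tested genes and TMM factors, and the SE of a log2 fold change comes from its F statistic. The fit was also run on simulated counts with a common dispersion for all genes and no library standing apart. That run does not cover the distance of the replicate 3 libraries seen here. Alternatives were DESeq2 1.42.0, limma-voom 3.58.1, other scalings and filters, a replicate block, omitted libraries and a 2-fold threshold. Exon lengths came from GENCODE release 29, promoters from RefSeq. Library values are given for up to 4 genes per class with the smallest adjusted p, genes that fell and related pairs; further genes shown by library (AEN, PIDD1, TP53I3) were chosen after their values were seen. Intervals and floors cover counting error and the spread between these libraries only. Some genes that the naming rule selects are not reported here.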

Additional observations from a re-analysis of the deposited data

How the results depend on the processing

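The count of members that rose was 19 to 25 when 1 library was left out, 26 without both replicate 3 libraries, 19 with the replicate block and 12 when a 2-fold change was also required. The 1 fall (MDM4) was 0 to 1 when 1 library was left out, 0 with the replicate block and with the 2-fold threshold, and 2 without both replicate 3 libraries, BTG1 being the second (log2 fold change -0.25). For all tested genes the counts of higher and lower calls were 356 to 885 and 415 to 811 with 1 library left out, 333 and 417 with the replicate block, 2093 and 2036 without both replicate 3 libraries, and 213 and 345 with the 2-fold threshold. Called risers were 1 to 3 (feedback) and 3 to 4 (cell-cycle control) with 1 library left out, 1 and 3 with the replicate block, and 1 and 2 with the 2-fold threshold, which left 1 in survival and death. Other p53 targets gave 24 higher with the block and 5 with the 2-fold threshold, and 2 lower by DESeq2 or without a filter. DESeq2, upper-quartile scaling, limma-voom and a mean of at least 10 counts left each of the 35 member calls in place. Signs turned for CCNG2 (-0.04 with total counts as the only scaling, -0.02 without PS-MP replicate 2), PIDD1 (-0.14 to 0.03 with 1 library left out, positive where PS-MP replicate 3 was omitted, and 0.08 when both libraries numbered 3 were) and TP53I13 (0.02 without both). The SESN2 to SESN1 log2 difference ran from -0.15 to 0.09 with 1 library left out and was 0.14 without both replicate 3 libraries. The cause of these changes was not tested. The labels do not say whether same-numbered libraries belong together. Deviations from the group means of same-numbered libraries correlated at -0.0947, -0.108 and -0.181, and those of other PS-MP and control libraries at -0.0853 to 0.134. Deviations within a group sum to 0, so these values depend on each other and cannot settle whether the libraries were paired. TNFRSF10C was too low to be tested at this depth.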
